A study of Mus musculus with 12 samples.

Results

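The variable segments of the T cell receptor (TCR) were followed across thymocyte RNA of AND-TCR–transgenic and C57BL/6 mice. Members were all probe sets, other than array controls, whose only annotated gene symbol names a variable, joining, diversity or constant segment of a TCR chain. This rule found 14 of 36701 probe sets and 10 of 15964 genes, all of them variable segments. They cover 2 segments of the β chain with 4 probe sets, 6 segments of the α chain with 8 probe sets and 2 segments of the γ chain with 2 probe sets. Of the 14 probe sets, 12 lie on the U74Av2 array, 1 on U74Bv2 and 1 on U74Cv2. No probe set was annotated to a constant segment, and 1 probe set that carries more than 1 TCR segment symbol was left out.

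The AND-TCR–transgenic group was total thymocytes of adult mice that carry a rearranged TCR recognizing MHC class II and that were positively selected on the H-2b background. The C57BL/6 group was total thymocytes of adult wild-type mice. RNA of either group went onto the 3 Affymetrix array types in 2 hybridizations, giving 12 arrays. Neither the labels nor the methods name the promoter of the transgenes, a deletion of the endogenous TCR genes, or the number of mice behind an RNA sample.

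A TCR of the αβ type is assembled during thymocyte development, when the RAG recombinase joins a variable segment to a joining segment of its chain, with a diversity segment added in the β chain. A productive β chain normally stops further β rearrangement in the same cell, a rule known as allelic exclusion, whereas α rearrangement can go on until positive selection. The γ chain pairs with the δ chain in a separate lineage of T cells. The AND receptor is known to use a β variable region of the Vβ3 family, which RefSeq lists as Trbv26, and an α variable region of the Vα11 family, which is Trav4 in the current naming. None of the probe sets was annotated to Trbv26 or to a Trav4 segment, so the segments of the transgenic receptor itself were not read by a probe set named for them.

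The values are scaled hybridization intensities. A detection limit was set from the negative values of each array type, at 421 on U74Av2, 869 on U74Bv2 and 1579 on U74Cv2, and values under it were raised to it before ratios were formed. A ratio against an array under the limit is therefore a bound. Each array pair set the AND-TCR–transgenic hybridization over the C57BL/6 hybridization of the same number. On single arrays, 23.2% to 48.9% of probe sets lay above the limit. Arrays of the same hybridization number were scanned on the same day, so each pair ratio is also a within-day value. The fluidics module was number 4 for every AND-TCR–transgenic array and number 2 for every C57BL/6 array, so module and group cannot be told apart. Sex-linked transcripts differed as well, since the 2 tested Y-linked probe sets were detected in AND-TCR–transgenic RNA by both hybridizations and in C57BL/6 RNA by neither. The methods call the 2 hybridizations independent experiments without saying that separate mice were used, so p-values cover the spread between hybridizations, which can be a technical one. In bulk RNA, fewer cells that carry a segment and less RNA per cell cannot be told apart.

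The β segment Trbv13-2 was detected in C57BL/6 thymocytes and not in AND-TCR–transgenic thymocytes. Trbv13-2 encodes the variable region of the Vβ8.2 family, which is common in the normal mouse repertoire. Probe set 101279_f_at read 362 and 244 on the first and second AND-TCR–transgenic arrays, against 10123 and 7997 on the C57BL/6 arrays. Both AND-TCR–transgenic values lay under the limit and both C57BL/6 values far above it, so the groups did not overlap. The ratio was at most 0.0416 in the first pair and at most 0.0526 in the second. The fold by which AND-TCR–transgenic thymocytes were lower was at least 21.4 (log2 fold change -4.42 ± 0.25 SE, limma adjusted p = 0.00222). As a bound, this value has no rank among measured fold changes. Both AND-TCR–transgenic values were set to the limit before the fit, so the SE and p-value hold no spread between those arrays. The probe set passed the filter through C57BL/6 thymocytes alone, which fixed its direction. The suffix of the probe set name marks probes that match a family of similar sequences, so related segments can contribute to this reading.

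The second Trbv13-2 probe set, 94202_at, carries no such suffix and showed the same pattern. It read -94.5 and -305 on the AND-TCR–transgenic arrays, against 1916 and 2909 on the C57BL/6 arrays. The ratio was at most 0.22 in the first pair and at most 0.145 in the second. Expression was at least 5.61-fold lower (log2 fold change -2.49 ± 0.35 SE, limma adjusted p = 0.0305). Because the AND-TCR–transgenic arrays lay under the limit at both probe sets, the 2 fold changes are bounds set by the C57BL/6 level, and their difference in size has no reading of its own. For the same reason the SE and p-value of 94202_at hold no spread between the AND-TCR–transgenic arrays.

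**Figure D1:**
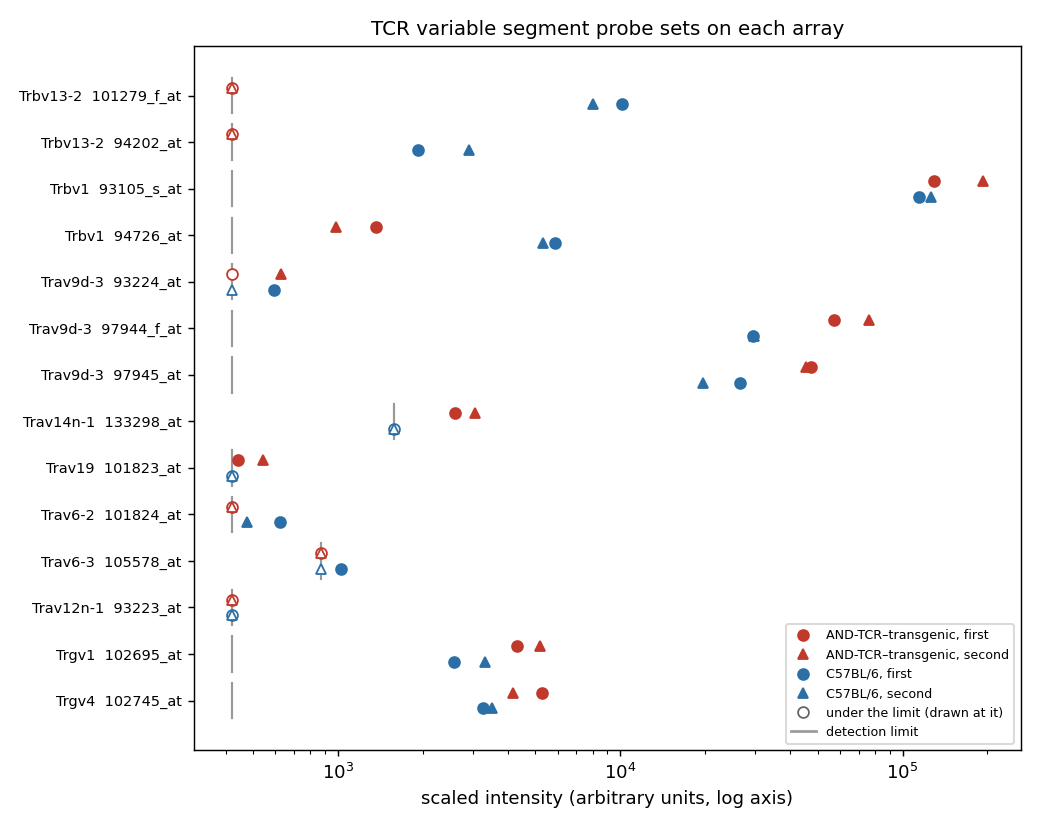
Scaled intensity of the 14 TCR segment probe sets on each array (log axis), with AND-TCR–transgenic values above C57BL/6 values in each row, circles for the first and triangles for the second hybridization. Open symbols lie under the detection limit, drawn as a grey bar, and are placed on it. Both Trbv13-2 probe sets and 94726_at of Trbv1 read lower in both hybridizations of AND-TCR–transgenic RNA, while 97944_f_at and 97945_at of Trav9d-3 read higher.

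Trbv1, the segment of the Vβ2 family, had 2 probe sets named for it, which read at very different levels. Of these, 1 was lower in AND-TCR–transgenic thymocytes and the other was not called. Probe set 94726_at gave 1365 and 985 on the AND-TCR–transgenic arrays, against 5864 and 5347 on the C57BL/6 arrays. All 4 values lay above the limit, and the highest AND-TCR–transgenic value was well under the lowest C57BL/6 value. The mean was 1175 ± 268 in AND-TCR–transgenic and 5605 ± 365 in C57BL/6 thymocytes (SD, n = 2 each). The ratios of the first and second pairs were 0.233 and 0.184, and expression was 4.83-fold lower (log2 fold change -2.27 ± 0.24 SE, limma adjusted p = 0.0111).

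The other Trbv1 probe set, 93105_s_at, gave 129259 and 192712 on the AND-TCR–transgenic arrays, against 114276 and 126231 on the C57BL/6 arrays. The groups did not overlap, but the 2 AND-TCR–transgenic values differed from each other by more than the lower of them differed from the C57BL/6 values. The pair ratios were 1.13 and 1.53. Its log2 fold change of 0.39 did not pass the test (95% confidence interval -0.16 to 0.95, limma adjusted p = 0.526). Its suffix marks probes that several transcripts share, and the annotation does not say which part of a TCR β transcript they match. Its mean was 120253 in C57BL/6 and 160985 in AND-TCR–transgenic thymocytes, against 5605 and 1175 at 94726_at. At such unlike levels the 2 cannot be taken as repeated readings of 1 transcript, and whether both read Trbv1 itself was not tested. The log2 fold changes of the 2 Trbv1 probe sets differed by 2.28 in the first pair and by 3.05 in the second, with a fitted difference of 2.67 (standard error 0.33). This difference was not put to a test of its own.

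Of the 4 β probe sets, all of which were tested, 3 were lower in AND-TCR–transgenic thymocytes and none was higher. The 2 Trbv13-2 probe sets entered the test through C57BL/6 thymocytes alone, which fixed their direction, and 94726_at of Trbv1 was measured in both groups. By the same test, 0.568% of the 12844 tested probe sets were lower and 0.483% were higher. The same 3 probe sets, and no other segment, were at least 2-fold lower in both pairs, which held for 1.19% of all tested probe sets. None of the TCR segment probe sets was at least 2-fold higher in both pairs, which likewise held for 1.19%. In the RefSeq annotation of GRCm38.p6, the β locus on chromosome 6 holds 35 variable segments, of which Trbv1 is the first, Trbv13-2 the 15th and Trbv26 the 30th. The other β segments were not read by a probe set of their own.

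Of the 3 probe sets named for Trav9d-3, an α variable segment, 1 was called higher in AND-TCR–transgenic thymocytes. It was the only such call among the segments, and the 3 probe sets were not alike. Probe set 97944_f_at gave 56973 and 76088 on the AND-TCR–transgenic arrays, against 29562 and 29732 on the C57BL/6 arrays. The C57BL/6 values were nearly equal and both AND-TCR–transgenic values lay clearly above them. The mean was 66530.5 ± 13516 in AND-TCR–transgenic and 29647 ± 120.5 in C57BL/6 thymocytes (SD, n = 2 each). The pair ratios were 1.93 and 2.56, and the reading was 2.22-fold higher (log2 fold change 1.15 ± 0.18 SE, limma adjusted p = 0.0382). Its suffix marks probes that match a family of similar sequences, so related segments can contribute to this reading.

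Probe set 97945_at of the same segment gave 47265 and 45334 on the AND-TCR–transgenic arrays, against 26668 and 19642 on the C57BL/6 arrays. Here the groups again did not overlap, and the C57BL/6 values were the more spread. The pair ratios were 1.77 and 2.31. The log2 fold change of 1.02 ± 0.18 SE missed the threshold (limma adjusted p = 0.0554). It passed with the scan day as a replicate block (limma adjusted p = 0.000649). A crossed pairing of the arrays gave a lower value still (limma adjusted p = 0.000382), so the pass cannot be credited to the scan day. The fitted values of these 2 probe sets differed by 0.13 (standard error of the difference 0.25).

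The third Trav9d-3 probe set, 93224_at, was near the detection limit. It gave 306 and 628 on the AND-TCR–transgenic arrays, against 596 and 361 on the C57BL/6 arrays, so that 1 array of each group lay above the limit. Its ratio was at most 0.706 in the first pair and at least 1.49 in the second, and it was not tested. The α locus holds near-identical duplicated segments, marked by the letters d and n in their symbols, so a probe set named for Trav9d-3 can detect its copies. The annotation does not say which part of the α transcript each of the 3 probe sets matches.

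**Figure D2:**
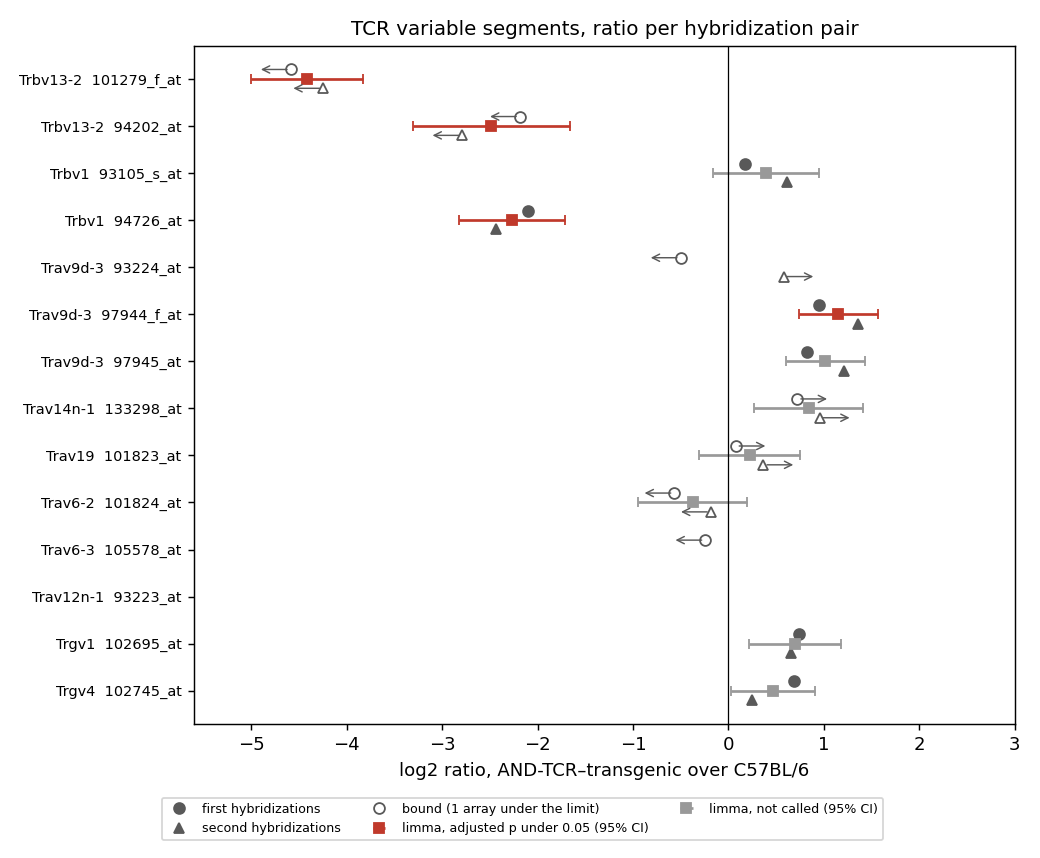
Log2 ratio of AND-TCR–transgenic over C57BL/6 intensity for each TCR segment probe set, from the first (circles) and second (triangles) hybridizations. Open symbols with arrows are bounds, and squares are limma fits with 95% confidence intervals, in red where the adjusted p was under 0.05. The called probe sets are 101279_f_at at -4.42, 94202_at at -2.49, 94726_at at -2.27 and 97944_f_at at 1.15, and intervals of fits on bounded values do not cover the unmeasured part.

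Among the other α segments, Trav14n-1 was detected in AND-TCR–transgenic thymocytes alone. Its probe set 133298_at on U74Cv2 gave 2603 and 3065 on the AND-TCR–transgenic arrays, against 1189 and 1184 on the C57BL/6 arrays, which lay under the limit of that array type. The ratio was at least 1.65 and at least 1.94 in the 2 pairs. The log2 fold change of at least 0.84 did not pass the test (limma adjusted p = 0.191).

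Trav19 and Trav6-2 lay close to the limit and ran in opposite directions. Trav19 gave 443 and 543 on the AND-TCR–transgenic arrays, against -149.8 and 39.2 on the C57BL/6 arrays, with ratios of at least 1.05 and 1.29. Its log2 fold change of at least 0.22 did not pass the test (limma adjusted p = 0.729). Trav6-2 gave 300.5 and 369.6 on the AND-TCR–transgenic arrays, against 623 and 478 on the C57BL/6 arrays, with ratios of at most 0.675 and 0.879. Its log2 fold change was -0.38 or lower and did not pass the test (limma adjusted p = 0.561). For these segments the groups did not overlap, but each entered the test through the group in which it was detected.

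Trav6-3 and Trav12n-1 were not tested. Trav6-3 on U74Bv2 gave 449.9 and 85.4 on the AND-TCR–transgenic arrays, against 1029 and 596 on the C57BL/6 arrays, of which only the 1029 lay above the limit. Trav12n-1 gave 167 and 132 on the AND-TCR–transgenic arrays, against 284 and 85.6 on the C57BL/6 arrays, all under the limit.

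Of the 8 α probe sets, 5 were tested, 1 was higher and none was lower. The log2 fold changes of the 2 measured in both groups were 1.15 and 1.02, and the other 3 have a bound only. In the order of the α locus on chromosome 14, which RefSeq gives with 130 variable segments, the probed segments are Trav6-2 (8th), Trav9d-3 (31st), Trav12n-1 (56th), Trav14n-1 (58th), Trav6-3 (85th) and Trav19 (126th). The last of these lies nearest to the joining segments. The values of Trav6-2, Trav14n-1 and Trav19 are bounds, so no order of fold changes along the locus can be read from them.

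The γ variable segments, on chromosome 13, were detected on all 4 arrays of U74Av2. Trgv1 gave 4310 and 5217 on the AND-TCR–transgenic arrays, against 2586 and 3315 on the C57BL/6 arrays, with ratios of 1.67 and 1.57. Its log2 fold change of 0.70 (95% confidence interval 0.22 to 1.17) did not pass the adjusted test (limma adjusted p = 0.194). Trgv4 gave 5278 and 4175 on the AND-TCR–transgenic arrays, against 3279 and 3517 on the C57BL/6 arrays, with ratios of 1.61 and 1.19. Its log2 fold change was 0.47 (95% confidence interval 0.03 to 0.90, limma adjusted p = 0.325). Both segments read above every C57BL/6 value on both AND-TCR–transgenic arrays, and neither was called. The fitted values of the 2 segments differed by 0.23 (standard error of the difference 0.27).

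Of the markers of γδ, NKT and NK cells, 2 of 12 probe sets were tested and none was called. The summed intensity of their U74Av2 probe sets above the limit was 4683 and 5638 on the AND-TCR–transgenic arrays, against 2431 and 1899 on the C57BL/6 arrays. Most of it came from Sox13, a transcription factor of γδ T cells, which gave 4082 and 4748 on the AND-TCR–transgenic arrays, against 1981 and 1395 on the C57BL/6 arrays (log2 fold change 1.41, limma adjusted p = 0.053). Of the 7 genes on this list, 6 had probe sets and 3 of those were never above the limit, among them Zbtb16, the defining factor of NKT cells, and Ncr1, a receptor of NK cells. The part of such cells in the γ readings was not tested.

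Over all TCR segments, 11 of the 14 probe sets were tested, of which 1 was higher and 3 were lower. Their median log2 fold change, which counts bounds as values, was 0.39, against 0.02 over all tested probe sets. It was 0.11 without the second AND-TCR–transgenic hybridization and 0.21 with quantile normalization. Of the 11 probe sets, 6 lay above the limit on all 4 arrays, 5 of these with positive and 1 with a negative log2 fold change. The other 5 passed the filter through 1 group only and had to differ. The groups did not overlap at any of the 11, with 7 higher and 4 lower in AND-TCR–transgenic thymocytes. Such a gap without overlap was found in 23% of all tested probe sets in the higher and in 21.4% in the lower direction. The 2 probe sets of Trbv13-2 were in the same direction, as were the 2 brighter ones of Trav9d-3, while those of Trbv1 were not.

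**Figure D3:**
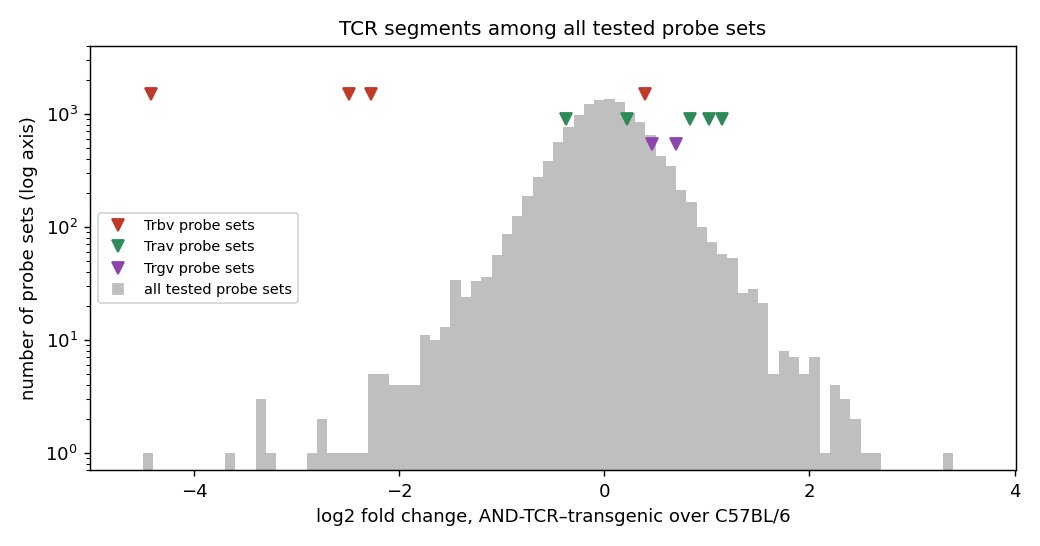
Number of probe sets (log axis) against the log2 ratio of AND-TCR–transgenic to C57BL/6 intensity, for all 12844 tested probe sets in grey, with the tested β, α and γ segment probe sets marked by triangles at their own values. The β probe sets called lower, at -4.42, -2.49 and -2.27, lie in the sparse lower tail, and the α probe set called higher lies at 1.15. Both Trbv13-2 probe sets and those of Trav6-2, Trav14n-1 and Trav19 are drawn at bounds set by the detection limit.

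None of the probe sets for the chains that carry the TCR to the cell surface was called. The CD3 chains and CD247 (the ζ chain) assemble with the TCR and transmit its signal. Cd3e gave 15753 and 19859.5 on the AND-TCR–transgenic arrays of U74Av2, against 16452 and 17576 on the C57BL/6 arrays, and the groups overlapped (log2 fold change 0.06, 95% confidence interval -0.31 to 0.42). Its probe set on U74Bv2 had a log2 fold change of -0.03 (95% confidence interval -0.28 to 0.22). Cd3g had a log2 fold change of 0.15 and Cd247 of 0.52 (limma adjusted p = 0.673 and 0.226). The 2 tested Cd3d probe sets had log2 fold changes of 0.40 and of -0.44 or lower (limma adjusted p = 0.568 and 0.32). Ptcra, the pre-TCR α chain that pairs with a new β chain, had a log2 fold change of -0.17 (95% confidence interval -0.81 to 0.48).

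For Rag1, Rag2 and Dntt, which act in the assembly of TCR segments, 3 of 6 probe sets were lower in AND-TCR–transgenic thymocytes, 1 for each gene. The share called lower over all tested probe sets was 0.568%. Rag1 at 93683_at, which encodes a subunit of the recombinase, had a log2 fold change of -2.25 (limma adjusted p = 0.00222), and its partner Rag2 had one of -3.24 or lower (limma adjusted p = 0.00901). A further Rag1 probe set, 161740_r_at, had a log2 fold change of -0.26 with a 95% confidence interval of -1.79 to 1.26 and was not called. Dntt, the terminal transferase that adds bases at segment junctions, gave 12731 and 10330.1 at 103961_s_at on the AND-TCR–transgenic arrays, against 25906 and 24193 on the C57BL/6 arrays. The log2 fold change was -1.13 ± 0.15 SE (limma adjusted p = 0.0255). Its other 2 probe sets had log2 fold changes of -1.06 and -1.16 and passed only with the replicate block (limma adjusted p = 0.00683 and 0.000689). That block raised the number of lower probe sets in all from 73 to 151, and a crossed pairing raised it to 226.

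Of 16 tested probe sets for these 11 genes, including the coreceptor genes Cd4, Cd8a and Cd8b1, 5 were lower and none was higher. The shares over all 12844 tested probe sets were 0.568% lower and 0.483% higher. With the replicate block 7 of the 16 were lower, and 151 of all tested probe sets. The 5 that were lower without the block belong to Rag1, Rag2, Dntt, Cd8a and Cd8b1. The median log2 fold change over the 16 was -0.50. The relation of these genes to the segment readings was not tested.

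Markers of the labelled cells and of cells that could accompany them were read on the same arrays. Of 8 thymocyte marker genes, several of which are also in the group above, 7 had a probe set and all 7 were detected. Their U74Av2 sum was 88908 and 102887 on the AND-TCR–transgenic arrays, against 158685 and 161130 on the C57BL/6 arrays, and 3 of 9 probe sets were lower. These were Rag1 at 93683_at, Cd8a and Cd8b1, beside a share of 0.568% lower over all tested probe sets. The probe sets of Cd3e, Thy1, Cd4 and Ptcra were not called, with a log2 fold change of -0.29 for Thy1 (limma adjusted p = 0.489). B cell markers summed to 2386 and 1869 on the AND-TCR–transgenic arrays, against 3317 and 3538 on the C57BL/6 arrays. The macrophage sums were 4728 and 4019 on the AND-TCR–transgenic arrays, against 2315 and 3528 on the C57BL/6 arrays. For red blood cells the sums were 6639 and 4378 on the AND-TCR–transgenic arrays, against 9709.7 and 11407 on the C57BL/6 arrays, and thymic epithelial markers read 1137 and 553 on the AND-TCR–transgenic arrays, against 582 and 0 on the C57BL/6 arrays. None of the 10 tested probe sets of these 4 lists was called. Immunoglobulin and globin transcripts were also examined, after their values had been seen. Of 35 tested immunoglobulin probe sets 3 were lower and none was higher (median log2 fold change -0.69), against 0.568% lower and 0.483% higher over all tested probe sets. Among the 3 was Igha at 100583_at with a log2 fold change of -1.28 (limma adjusted p = 0.0247). Of 4 tested globin probe sets 1 was lower (log2 fold change -1.68, limma adjusted p = 0.0161). It is shared by several Hbb genes, among them Hbb-b1. That gene is on the red blood cell list but was not counted there, as it has no probe set of its own. The part of these cells in the segment readings was not tested.

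**Figure D4:**
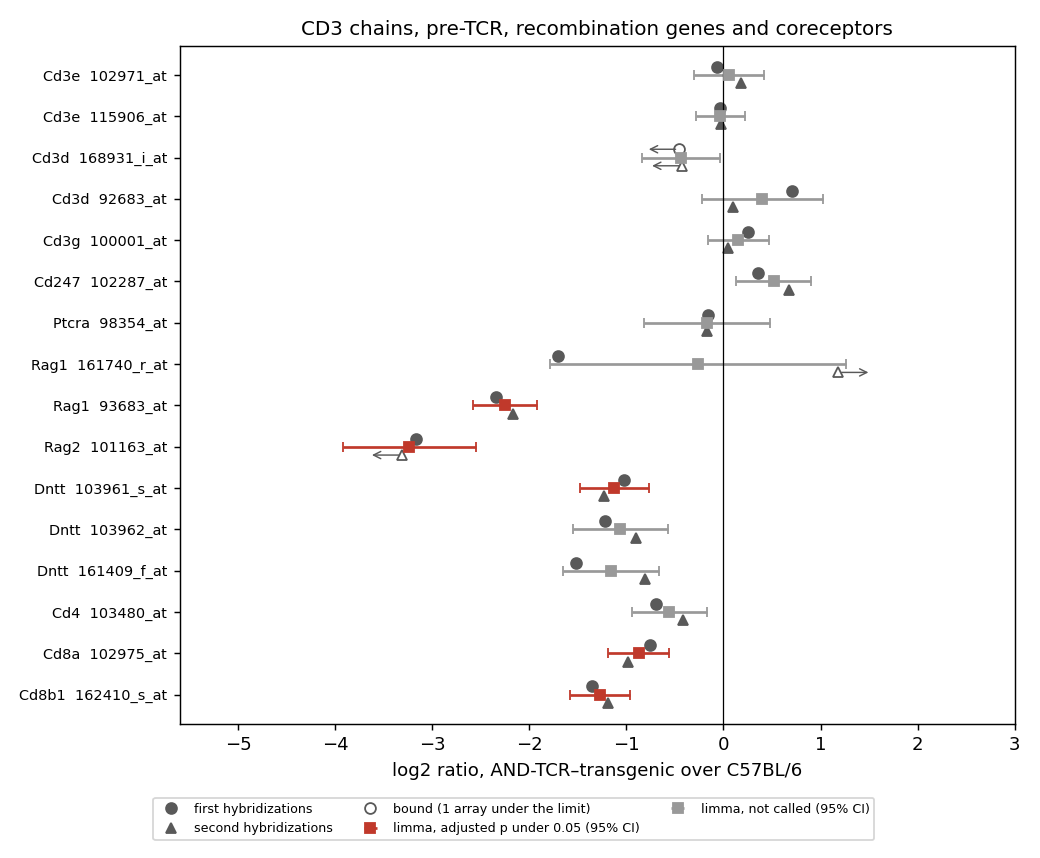
Log2 ratio of AND-TCR–transgenic over C57BL/6 intensity for the tested probe sets of CD3 chains, pre-TCR, recombination genes and coreceptors, with symbols as in the plot of segment ratios. Cd3e, Cd3g and Ptcra lie near 0, and Rag1 at 93683_at (-2.25), Rag2 (-3.24), Dntt at 103961_s_at (-1.13), Cd8a (-0.87) and Cd8b1 (-1.27) are called lower.

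With 2 arrays per group the calls rest on little replication. When any 1 hybridization was left out, neither a TCR segment nor any other probe set was called by limma, with 1290 to 1968 probe sets at an unadjusted p under 0.05. Of the called segments, 94726_at of Trbv1 kept a log2 fold change between -2.51 and -2.04, and 97944_f_at of Trav9d-3 between 0.94 and 1.36. The bounds of Trbv13-2 lay between -4.59 and -4.25 at 101279_f_at and between -2.79 and -2.19 at 94202_at. These Trbv13-2 ranges came from leaving out wild-type arrays alone. The AND-TCR–transgenic values of both probe sets were set to the limit. Leaving out either of those arrays therefore returned the main bounds of -4.42 and -2.49 and could not test their stability. With a constant prior variance in limma, 101279_f_at alone was called among the segments, and the adjusted p was 0.0745 for 94202_at, 0.0745 for 94726_at and 0.149 for 97944_f_at.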

How the data were processed

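The authors hybridized biotin-labeled cRNA from total thymocyte RNA to Affymetrix U74Av2, U74Bv2 and U74Cv2 arrays and analyzed the scans with Microarray Suite. They deposited linear intensities, some of them negative, scaled to a trimmed mean of 1000.4 to 1000.9 per array. The sources used here do not name the kind of value. By the scanner notes, the first C57BL/6 array of U74Av2 was a repeated scan, and U74Av2 lots differed between the 2 scan days.

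Arrays were brought to 1 trimmed mean (2% cut at each end) per array type. The noise SD was 1.4826 times the median size of negative values, and the limit was 2 noise SDs. Tested were the probe sets above the limit on both arrays of a group. limma 3.58.1 (R 4.3.3, lmFit, eBayes with a trend) was fitted per array type, with Benjamini-Hochberg adjustment over all 12844 tested probe sets. The fit was also run on simulated intensities with known changes and independent noise. That run had no scan day or module effect, so it is no check on those. With 2 arrays against 2, an exact permutation test cannot pass a threshold of 0.05 and none is given. Gene symbols came from the platform annotation, and all 10 segments matched RefSeq of GRCm38.p6 by gene identifier. The order of segments in a locus follows their start positions in RefSeq, and no coordinates are printed. By rule, probe sets that passed the filter were given array by array, and the 3 untested ones are given too. Members and lists were chosen with earlier results of these data known. Hybridization numbers mark shared scan days. The deviations of same-numbered arrays correlated at 0.04, -0.12 and -0.23 on the 3 array types. Python 3.11.15 with matplotlib 3.10.9 drew the figures. Alternatives were the limit, the filter, quantile normalization, the trend, the replicate block and leaving out each hybridization.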

Additional observations from a re-analysis of the deposited data

How the results depend on the processing

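The 6 TCR segment probe sets that all 4 arrays detected kept their direction under each alternative. That of the other 5 was fixed by the filter and the limit in the main fit. With the limit at 1 noise SD, 101279_f_at, Trav6-2 and Trav14n-1 were above it on all 4 arrays. Their log2 fold changes were then -4.92, -0.71 and 1.25, in the same directions as before. Counts of called segments, 1 higher and 3 lower, changed more. With the replicate block (the shared scan day) 2 were higher and 3 lower, with 97945_at of Trav9d-3 as the added one, and no other segment's call changed. A crossed pairing, added after the data were seen, also gave 2 higher and 3 lower segments and 229 higher and 226 lower probe sets in all, against 155 and 151 with the numbers as labelled and 62 and 73 without a block. With the limit at 1 noise SD none was higher, and at 4 noise SDs 2 were higher and 2 lower among 8 tested. With a constant prior variance in limma none was higher and 1, 101279_f_at of Trbv13-2, was lower (adjusted p = 0.0384). Without the filter none was higher, 1 was lower and the median log2 fold change was 0.13, while 414 higher and 402 lower probe sets were called in all. In that fit 52.8% of the probe sets lay under the limit on all 4 arrays, and the cause of the shift was not tested. Without any 1 hybridization the counts were 0 and 0 (1290 to 1968 probe sets at an unadjusted p under 0.05), with a median between 0.11 and 0.47. At 1 noise SD, all 4 arrays of 101279_f_at of Trbv13-2 lay above the limit, and its log2 fold change of -4.92 was measured. At 4 noise SDs it was a bound of -3.42. The log2 fold change of 94202_at was a bound at both limits, -3.49 at 1 and -1.49 at 4 noise SDs. This probe set was not called at 4 noise SDs (limma adjusted p = 0.0538). Quantile normalization gave a median of 0.21, kept all calls and gave 93105_s_at of Trbv1 a log2 fold change of 0.13, in place of 0.39, with a ratio of 1 in the second pair.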
